A study of Mus musculus with 9 samples.

Results

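The genes described here are members of 24 families of developmental and lineage transcription factors, chosen by gene name alone. A name had to be that of a Hox, Fox, Sox, Tbx, Pitx, Barx, Dlx, Msx, Gata, Meis, Pbx, Lhx, Irx, Tfap2, Nkx, Runx, Elf, Grhl, Ovol or Prrx gene or of a gene in the family of Six2 and Six4, or had to be Ehf, Tcf21, Ets1 or Ets2. The deposited table held 103 such genes among 13336, of which 101 are protein coding and the other two, Irx3os and Runx2os1, are antisense RNAs. Members were measured in 23 of the families, and Tcf21 was not analysed here. The group means reached 1 TPM in at least 1 group for 87 members and 10 TPM for 44, TPM being the part that a gene takes of the transcripts in a library, on a scale whose sum is set for every library. The authors kept a gene when its mean was at least 3 SD above zero in at least 1 group, and 20 members met this in 1 group only. In a gene kept only through the group where it is high, the filter favours a difference but does not force one. Of the called members 3 were of this kind, Foxs1, Tbx4 and Tbx18, which fell short of 3 SD in WT.

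The libraries came from sorted mouse tracheal gland cells, 5 libraries from Lef-1KI cultures and 4 from wild-type (WT) cultures, each made from cells pooled from 3 to 5 mice. All mice carried ACTA2-CreERT2, a tamoxifen-activated Cre under the promoter of smooth muscle actin, a gene of myoepithelial and smooth muscle cells. The Lef-1KI mice carried in addition a Lef-1 knock-in (labelled +/+) and their cells were collected as GFP-negative, whereas the WT mice carried the ROSA-TG reporter and their cells were collected as GFP-positive. Genotype and gate therefore changed together and cannot be told apart. Both groups received tamoxifen on 5 days before harvest and were grown to passage 1 on laminin-rich plastic with a ROCK inhibitor (10 µM) and with DMH-1, A83-01 and CHIR 99021 (1 µM each), the last of which activates Wnt signalling. The sources used here give no ages. The libraries are named below by the letters in the authors' table, A to E for Lef1KI and A, B, D and E for WT. No label says what a shared letter means.

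Transcription factors of these families bind DNA through a few shared domains, such as the homeodomain of Hox, Barx, Pitx and Prrx proteins, the forkhead domain of Fox proteins and the T-box of Tbx proteins. Combinations of them mark where a cell lies in the body and which lineage it belongs to. In the airway, Nkx2-1, Sox2, Grhl2 and Foxa1 are known from the epithelium, and Foxf1, Tbx4 and Prrx1 from the mesenchyme around it.

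In outline, 5 of 10 measured factors known from mesenchyme rose in the Lef1KI libraries and none fell. Tbx4 and Tbx18 are among the 5 and were kept by the 3 SD filter only through Lef1KI, where they are high. Of 17 epithelial factors 3 fell, a count that was 0 without WT D. Of the epithelial factors that fell, Pitx1 and Barx2 are also known from other tissues. Both lists were drawn up with earlier results of these data known. The airway epithelial factors Nkx2-1, Sox2, Grhl2 and Foxa1 and the measured Hox genes did not pass the test. Of these, Foxa1 was at 4.61 TPM in Lef1KI against 8.62 in WT (limma adjusted p = 0.0791). Foxa1 was called lower under each of the other scalings described below. The 8 members that rose were Foxf1, Foxf2, Foxs1, Tbx4, Tbx18, Prrx1, Barx1 and Tfap2a, and the 4 that fell were Elf3, Foxq1, Pitx1 and Barx2. Calls were made at a Benjamini-Hochberg adjusted p under 0.05 from limma, fitted to log2(TPM + 1) over all 13336 genes. The 12 calls are 11.7% of the members, where 7.97% of all genes were called. In the separate directions 7.77% of members rose, against 6.73% of all genes, and 3.88% fell, against 1.24%. The median difference, taken as Lef1KI less WT in log2(TPM + 1) units, was 0.14 over the members and 0.14 over all genes. The split into 8 higher and 4 lower depended on the scaling: it was 5 and 9 when each library was centred on its median, and 7 and 8 with trimmed-mean scaling. Over all genes the split of 898 higher and 165 lower became 605 and 332, and 684 and 287. These 2 scalings moved the median of all genes from 0.14 to -0.02 and 0.000469.

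A second, test-free description was whether the 5 Lef1KI values and the 4 WT values overlapped. For 15 members (14.6%) they did not, with 11 members higher in Lef1KI and 4 lower. Over all genes 11.9% did not overlap, 10.0% higher and 1.89% lower. Of the 15 members, 10 were also called. The other five were Foxn1, Lhx6 and Six4, higher in Lef1KI, and Sox21 and Hoxb2, lower. At an unadjusted p under 0.05 limma gave 35 members and 3169 genes in all.

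**Figure D1:**
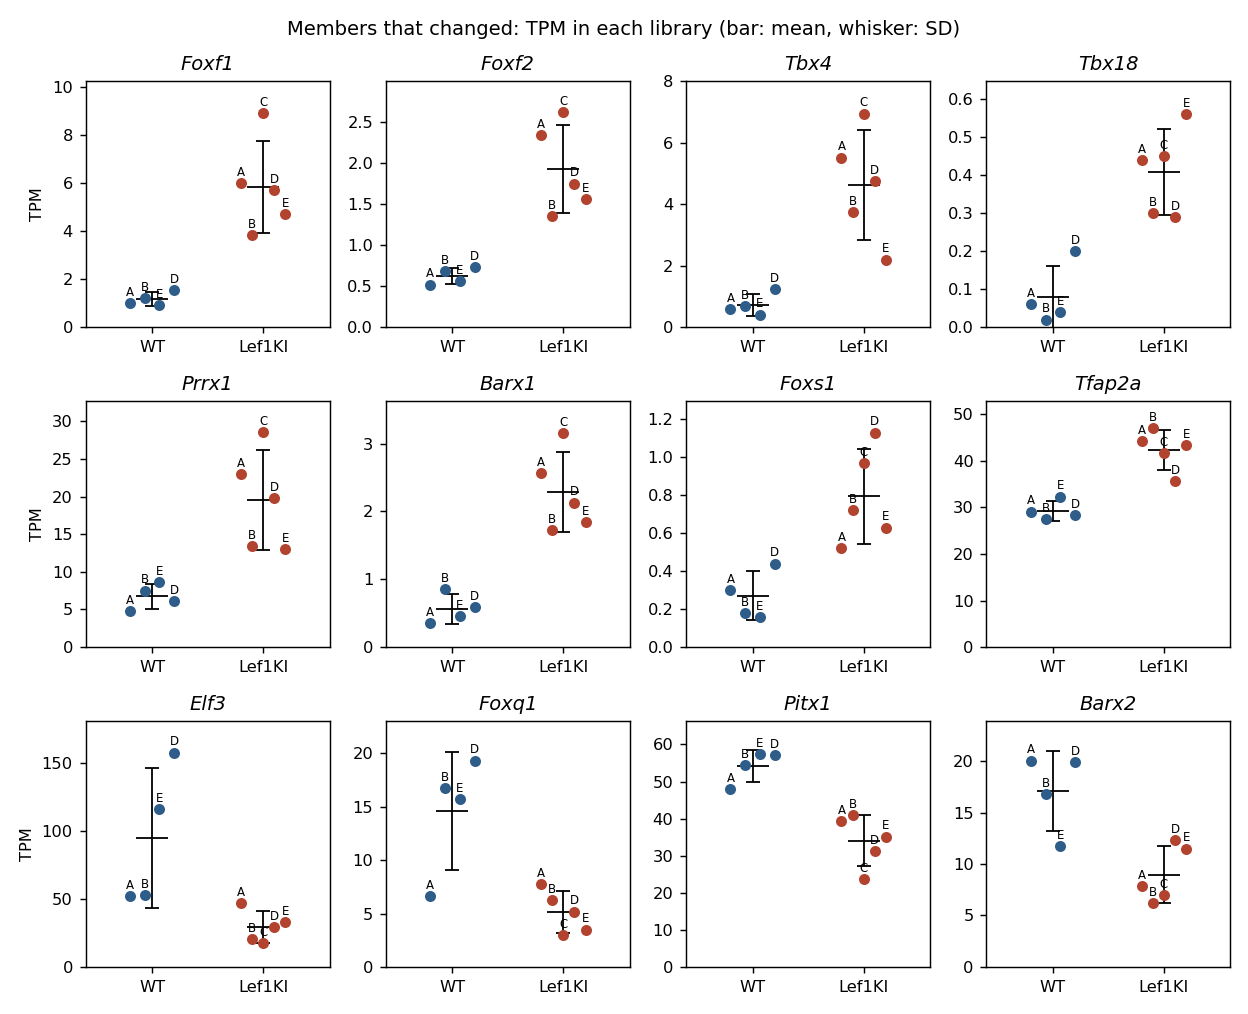
TPM of the 12 called members on linear axes from 0, with WT in blue and Lef1KI in red, 1 lettered point per library, a bar at the mean and whiskers of 1 SD. For Foxf1 the Lef1KI libraries lie between 3.83 and 8.90 TPM and the WT libraries between 0.93 and 1.56, whereas for Foxq1 and Barx2 the groups overlap.

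Lef1 itself was at 227 ± 79.8 TPM (SD, n = 5) in Lef1KI and 0.448 ± 0.0763 (SD, n = 4) in WT, which checks the labels (difference 7.23 on the log2 scale, two-sided exact permutation p = 0.0159, the smallest that 126 splits allow). The libraries held 11465 to 12135 genes at 1 TPM or more, and because TPM values keep no record of depth, the sequencing depth is unknown. The labelled cell type is myoepithelial. The 11 airway basal markers, such as Krt5 and Krt14, summed to 22557 to 25590 TPM in Lef1KI and 18196 to 25026 in WT. Among them 1 rose (Cdh3) and 1 fell (Ngfr). Of 8 myoepithelial and smooth muscle markers 5 were measured, summing to 43.5 to 134 TPM in Lef1KI and 105 to 183 in WT, with Myh11 under 1 TPM in both group means. Of these 5, Mylk rose and none fell, and the median difference was 0.51 although the summed values ranged lower. The 16 fibroblast and stromal markers, such as Col1a1 and Pdgfra, summed to 1619 to 4443 TPM in Lef1KI and 427 to 1125 in WT, and 13 of the 16 rose and none fell. The endothelial list (10 of 13 measured) summed to 37.0 to 112 TPM against 19.9 to 29.9, with 6 higher, none lower and Tek under 1 TPM in both groups. The leukocyte list (4 of 9 measured) summed to 58.4 to 244 TPM against 111 to 260, with 2 higher (Coro1a and Lyz2), none lower, and Coro1a and Itgam under 1 TPM in both groups. In bulk libraries, fewer cells of a type and less RNA per cell cannot be told apart.

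Windows just upstream of the gene start are shown for 5 called members, chosen after their values were seen: 4 that rose and 1 that fell. They are from RefSeq on GRCm38.p6, up to 250 bases before the start and cut back where a coding transcript of GENCODE M21 begins, and read 5′ to 3′ on the gene's strand. Capitals mark matches to GGGCGG or its reverse CCGCCC (the GC box), TAATTA (the homeodomain core) and TATAAA or its reverse TTTATA (the TATA box). The windows lie at chr13:48662786-48662997 (+) for Barx1, chr13:31625566-31625815 (+) for Foxf2, chr11:85896515-85896764 (+) for Tbx4, chr1:163313711-163313900 (−) for Prrx1 and chr1:135258569-135258722 (−) for Elf3. The RefSeq start of Tbx4 lies inside the GENCODE gene.
Barx1: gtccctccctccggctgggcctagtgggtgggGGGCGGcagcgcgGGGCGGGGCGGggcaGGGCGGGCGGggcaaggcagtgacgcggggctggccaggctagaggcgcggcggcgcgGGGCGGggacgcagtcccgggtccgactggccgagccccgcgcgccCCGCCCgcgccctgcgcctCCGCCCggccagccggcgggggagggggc
Foxf2: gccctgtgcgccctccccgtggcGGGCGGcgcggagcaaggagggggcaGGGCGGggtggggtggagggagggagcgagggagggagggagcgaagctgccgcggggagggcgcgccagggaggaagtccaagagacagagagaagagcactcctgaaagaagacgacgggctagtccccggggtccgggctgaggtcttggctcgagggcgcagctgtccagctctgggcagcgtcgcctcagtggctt
Tbx4: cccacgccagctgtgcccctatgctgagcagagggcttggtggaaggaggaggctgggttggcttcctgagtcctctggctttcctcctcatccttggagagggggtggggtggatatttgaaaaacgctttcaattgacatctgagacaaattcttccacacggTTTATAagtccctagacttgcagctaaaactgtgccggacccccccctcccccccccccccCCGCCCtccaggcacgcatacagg
Prrx1: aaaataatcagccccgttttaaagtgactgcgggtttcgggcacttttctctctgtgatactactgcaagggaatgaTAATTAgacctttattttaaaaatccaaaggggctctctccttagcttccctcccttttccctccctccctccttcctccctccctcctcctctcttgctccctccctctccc
Elf3: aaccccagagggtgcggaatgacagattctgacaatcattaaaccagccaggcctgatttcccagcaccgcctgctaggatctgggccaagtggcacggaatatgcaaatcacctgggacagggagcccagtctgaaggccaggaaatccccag

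The Barx1 window is 85.4% G or C and holds 8 GC boxes, some of them overlapping. Foxf2 is at 71.6% with 2 GC boxes, and Tbx4 at 58.4% with 1 GC box and 1 TATA box. Prrx1 is at 48.9% with 1 homeodomain core, and Elf3 at 55.8% with no match. Of the 103 members 63 had a promoter in the table, and of the 12 called members 7. Motifs were counted by gene in the full windows of 250 bases, before any cutting back, a gene with several windows counting once. The GC box was in 4 of the 7 called members, in 39 of the 63 and in 35.4% of all 27025 genes of the table. The homeodomain core was in 2 of 7, 5 of 63 and 5.7%. The TATA box was in 1 of 7, 6 of 63 and 14.3%. The core of the TCF/LEF site, CTTTGA or TCAAAG, which Lef1 protein is known to bind, was in 0 of the 7 called members, 9 of the 63 and 15.8% of all. The forkhead motif GTAAACA or TGTTTAC was in 0 of 7, 2 of 63 and 3.5%. These are matches of letters in short windows and say nothing about binding.

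Among the lists of members by role, that of the mesenchymal factors had the largest median difference. The list was drawn up with earlier results of these data known. Its comparison with all genes is therefore no independent evidence of direction. Of 15 listed, 10 were measured, 5 rose (Foxf1, Foxf2, Tbx4, Tbx18 and Prrx1) and none fell. Their median difference was 0.57, against 0.14 over all genes, and 8 of the 10 had an unadjusted p under 0.05, including Runx2 with a negative difference. Over all genes 7.97% were called and 23.8% had such a p. On a scale with a smaller constant, log2(TPM + 0.1), the median was 1.26, because the constant of 1 compresses genes near 1 TPM. Of the listed factors that rose, Tbx4 and Tbx18 were kept by the authors' filter only through Lef1KI, where they are high.

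Foxf1 is a forkhead factor of lung and gut mesenchyme (chr8:121084386-121088144, + strand, ENSMUSG00000042812). Its level was 5.99, 3.83, 8.90, 5.70 and 4.69 TPM in Lef1KI A to E, against 0.99, 1.21, 1.56 and 0.93 in WT A, B, D and E. Each Lef1KI library was above all WT libraries, with C the highest. The mean was 4.97 times higher, at 5.82 ± 1.92 (SD, n = 5) against 1.17 ± 0.285 (n = 4), a difference of 1.62 ± 0.20 (SE, limma adjusted p = 0.00120). Foxf2, its close relative (chr13:31625816-31631403, +), had 2.34, 1.35, 2.62, 1.75 and 1.56 TPM in Lef1KI A to E. The WT values were 0.52, 0.68, 0.73 and 0.56 for A, B, D and E, below every Lef1KI value. The mean was 3.09 times higher and the difference 0.83 ± 0.14 (limma adjusted p = 0.00507). Reads that fall in a stretch shared by both genes could be split between them. The longest identical stretch between their transcripts in GENCODE M21 is 41 coding bases, printed in lower case.
Foxf1 and Foxf2 shared stretch: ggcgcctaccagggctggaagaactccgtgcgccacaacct

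The sources used here do not give the read length, so how many reads could be placed in either gene is not known.

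Tbx4 is a T-box factor of lung and trachea mesenchyme and hindlimb (chr11:85886422-85916097, +). It was at 5.52, 3.74, 6.95, 4.75 and 2.20 TPM in Lef1KI A to E, and in WT A, B, D and E at 0.60, 0.68, 1.23 and 0.41. The groups did not overlap, and Lef1KI E was the lowest of its group. The mean rose 6.35-fold, from 0.73 ± 0.352 (n = 4) to 4.63 ± 1.80 (SD, n = 5), a difference of 1.66 ± 0.25 (limma adjusted p = 0.00287). Tbx18, known from mural and other mesenchymal cells (chr9:87702800-87731260, −), stayed under 1 TPM everywhere. It was between 0.29 and 0.56 TPM in Lef1KI and between 0.02 and 0.20 in WT, without overlap (difference 0.38 ± 0.09, limma adjusted p = 0.0230). This call was lost when Lef1KI C or WT A, B or E was left out, with median centring and without the variance trend.

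Prrx1, a homeodomain factor of limb, face and connective tissue mesenchyme (chr1:163245119-163313710, −), was the most abundant of the mesenchymal factors that rose. It had 23.00, 13.40, 28.57, 19.79 and 12.98 TPM in Lef1KI A to E. In WT A, B, D and E it had 4.76, 7.51, 6.15 and 8.60, below every Lef1KI library. The mean was 19.5 ± 6.60 (SD, n = 5) against 6.76 ± 1.67 (n = 4), 2.89 times higher, with a difference of 1.37 ± 0.25 (limma adjusted p = 0.00753). Its paralog Prrx2 had 3.84 ± 1.06 TPM (n = 5) and 1.92 ± 0.963 (n = 4), and did not pass the test (0.77 ± 0.24, limma adjusted p = 0.0755). The remaining members of the list did not pass either. Foxc2 had a difference of 0.30 at 0.664 TPM in Lef1KI (limma adjusted p = 0.113) and Tbx15 one of 0.19 (0.387). Six2 (-0.49, limma adjusted p = 0.214) and Runx2, the bone and cartilage factor (-0.71, 0.112), had negative differences.

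A pair of genes outside that list also rose and are known from mesenchymal or vessel-associated cells. Barx1, a homeodomain factor of stomach and facial mesenchyme (chr13:48662998-48666507, +), had 2.56, 1.73, 3.16, 2.13 and 1.84 TPM in Lef1KI A to E and 0.35, 0.85, 0.59 and 0.46 in WT A, B, D and E. Every Lef1KI library was higher than every WT library. The mean was 4.06 times higher, 2.28 ± 0.585 TPM (SD, n = 5) in Lef1KI, with a difference of 1.06 ± 0.15 (limma adjusted p = 0.00226). Foxs1, a forkhead gene of pericytes and neural crest derivatives (chr2:152931898-152933208, −), ranged from 0.52 to 1.13 TPM in Lef1KI and 0.16 to 0.44 in WT (difference 0.49 ± 0.12, limma adjusted p = 0.0303). That call was lost without Lef1KI B, C or D or WT A, B or E, with median centring and without the variance trend.

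The stromal marker sum was also higher in each Lef1KI library than in any WT library. Summed over the 16 markers, Lef1KI C had 4443 TPM, A 3968, D 3550, B 2088 and E 1619. Prrx1 and Tbx4 put the Lef1KI libraries in this very order, and Foxf1, Foxf2 and Barx1 in the order C, A, D, E, B. Other orders were those of Tbx18 (E, C, A, B, D), Foxs1 (D, C, B, E, A) and Prrx2 (C, E, D, B, A). In WT the stromal order D, B, E, A was that of Foxf2 and Prrx2, but not of Prrx1 (E, B, D, A), Foxf1 and Tbx4 (D, B, A, E), Barx1 (B, D, E, A), Tbx18 (D, A, E, B) or Foxs1 (D, A, B, E). The same WT order was that of further members, such as Foxq1, which fell, and Elf5, Foxn1 and Six2, which did not pass. It was also that of the luminal and secretory marker sum, so it is not particular to stromal markers. When each factor was divided by the stromal sum of its library, the groups overlapped for each of Foxf1, Foxf2, Tbx4, Tbx18, Prrx1, Barx1, Foxs1 and Prrx2. Per 1000 TPM of stromal markers, Foxf1 was at 1.97 ± 0.553 TPM (SD, n = 5) in Lef1KI and 1.63 ± 0.458 (n = 4) in WT. Tbx4 ranged from 1.34 to 1.79 in Lef1KI and from 0.627 to 1.41 in WT. Prrx1 ranged from 5.58 to 8.02 in Lef1KI and from 5.47 to 13.1 in WT. These quotients were chosen after the values were seen and carry no test, and the part of stromal cells in the rise of these factors was not tested.

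**Figure D2:**
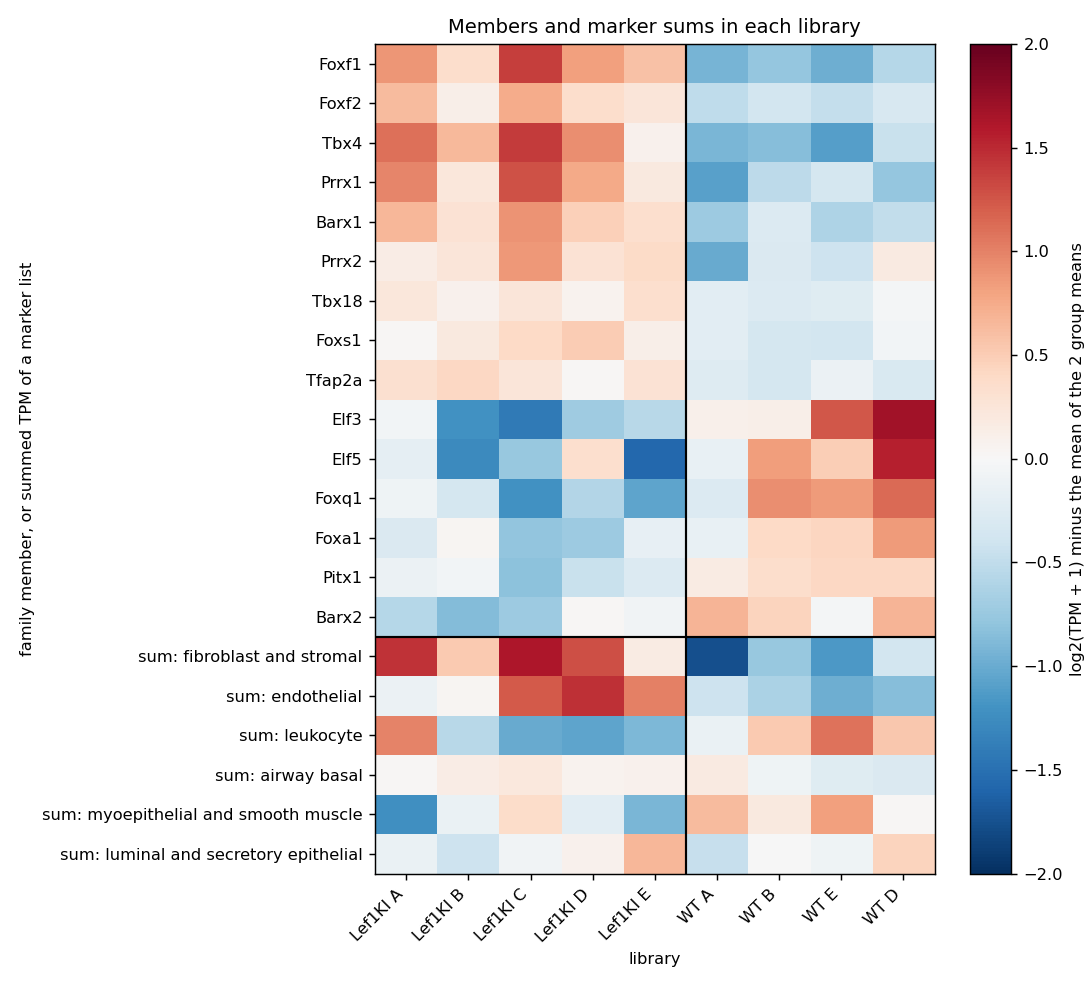
Heat map of 15 members and 6 marker sums in the 9 libraries, each cell coloured from blue (lower) to red (higher) by log2(TPM + 1) minus the mean of the 2 group means. In the rows of Foxf1, Tbx4, Prrx1 and Barx1 the 5 Lef1KI columns are above the 4 WT columns, with Lef1KI C the highest, as in the stromal marker sum of 4443 TPM. Lef1KI C is also the highest Lef1KI library in the airway basal sum and in the myoepithelial and smooth muscle sum.

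The epithelial list fell into members that dropped and members that did not pass the test. Of 21 genes listed 17 were measured, 3 fell (Elf3, Pitx1 and Barx2) and 1 rose (Tfap2a). The list was drawn up with earlier results of these data known. Pitx1 is also known from hindlimb and Barx2 from muscle progenitors, so these falls are not specific to epithelial factors. The median difference was -0.20, with 11 negative and 6 positive values, against 0.14 over all genes. With each library centred on its median the number that fell was 5, and leaving out 1 library at a time gave 0 to 4.

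Elf3 is an ETS factor of epithelial differentiation (chr1:135253575-135258568, −). It was at 46.74, 20.40, 17.50, 29.07 and 32.82 TPM in Lef1KI A to E, and at 52.28, 52.68, 157.55 and 115.75 in WT A, B, D and E. The groups did not overlap, although Lef1KI A and WT A were close, and WT D and E were far above WT A and B. The mean was 3.23 times lower in Lef1KI, at 29.3 ± 11.6 (SD, n = 5) against 94.6 ± 51.5 (n = 4). The difference was -1.58 ± 0.37 (limma adjusted p = 0.0254), and the call was lost without any 1 of Lef1KI B, C and D and WT D and E. Its relative Elf5, a regulator of secretory cells in glands, did not pass (5.82 TPM in WT and 1.70 in Lef1KI, -1.37 ± 0.42, limma adjusted p = 0.0737), though it passed with median centring. The groups overlapped for Elf5, since Lef1KI D was at 3.88 TPM and WT A at 2.50.

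Pitx1, a homeodomain factor of hindlimb, pituitary and oral epithelium (chr13:55825051-55836192, −), had 39.36, 41.04, 23.67, 31.13 and 35.12 TPM in Lef1KI A to E. In WT A, B, D and E it had 47.96, 54.50, 57.19 and 57.33, all above the Lef1KI libraries. The mean was 1.59 times lower and the difference -0.68 ± 0.16 (limma adjusted p = 0.0255), lost without Lef1KI D or WT B, D or E. Barx2, a homeodomain factor of gland and muscle progenitors (chr9:31846044-31913462, −), had 7.85, 6.20, 6.96, 12.31 and 11.50 TPM in Lef1KI A to E. The WT values were 20.06, 16.81, 19.94 and 11.77 for A, B, D and E, so Lef1KI D lay above WT E. Its mean was 1.91 times lower (-0.88 ± 0.23, limma adjusted p = 0.0427), and the call was lost without Lef1KI A, B or C or WT A, B or D.

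Tfap2a, an AP-2 factor of surface ectoderm and neural crest (chr13:40715302-40738376, −), was the epithelial gene that rose. Its level was 44.22, 47.07, 41.62, 35.58 and 43.29 TPM in Lef1KI A to E, against 29.08, 27.42, 28.30 and 32.30 in WT A, B, D and E. Each Lef1KI library exceeded each WT library, by a smaller factor than for the mesenchymal genes. The mean was 1.45 times higher (difference 0.51 ± 0.11, limma adjusted p = 0.0191). The call was lost without Lef1KI B, WT B or WT D, and with either other scaling. Tfap2c, its paralog, was at 25.4 ± 7.76 TPM (n = 5) and 25.8 ± 4.72 (n = 4), a difference of -0.05.

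The other epithelial factors, those of identity and barrier, did not pass the test. Nkx2-1, the lung and thyroid factor, was at 18.3 ± 6.46 TPM (SD, n = 5) in Lef1KI and 22.7 ± 1.26 (n = 4) in WT (-0.37, limma adjusted p = 0.384). Sox2, of airway basal progenitors, was at 22.9 ± 6.05 and 25.8 ± 1.70 (-0.20, limma adjusted p = 0.517). Grhl2, a regulator of cell junctions, was at 28.4 ± 5.40 and 27.7 ± 5.96 (0.04, limma adjusted p = 0.917). Among these, the Lef1KI range of Nkx2-1, 8.77 to 25.37 TPM, enclosed its whole WT range of 21.24 to 24.14. Grhl1 had a difference of 0.03 and Grhl3, of skin barrier formation, one of 0.51, with limma adjusted p of 0.973 and 0.380. Ehf, an ETS factor of epithelial cells, was at 60.2 ± 15.8 and 73.7 ± 14.2 TPM (-0.31, limma adjusted p = 0.365). Foxa1, a pioneer factor of airway epithelium, was at 4.61 ± 1.37 and 8.62 ± 2.66 TPM (-0.77, limma adjusted p = 0.0791), and passed under both other scalings. Foxa2, at 0.956 and 1.09 TPM, had a difference of -0.12. Foxn1, of thymus and hair epithelium, was at 2.34 ± 0.913 and 1.16 ± 0.147 TPM without overlap (0.59, limma adjusted p = 0.0720). Ovol1 and Ovol2, which restrain mesenchymal genes in epithelia, had differences of 0.29 and -0.46 (limma adjusted p of 0.427 and 0.151). The luminal and secretory marker sum, given for comparison, was 914 to 1932 TPM in Lef1KI and 883 to 1657 in WT. Of the 9 markers measured in that list 2 rose (Cdh1 and Lpo) and none fell, with a median difference of -0.07.

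**Figure D3:**
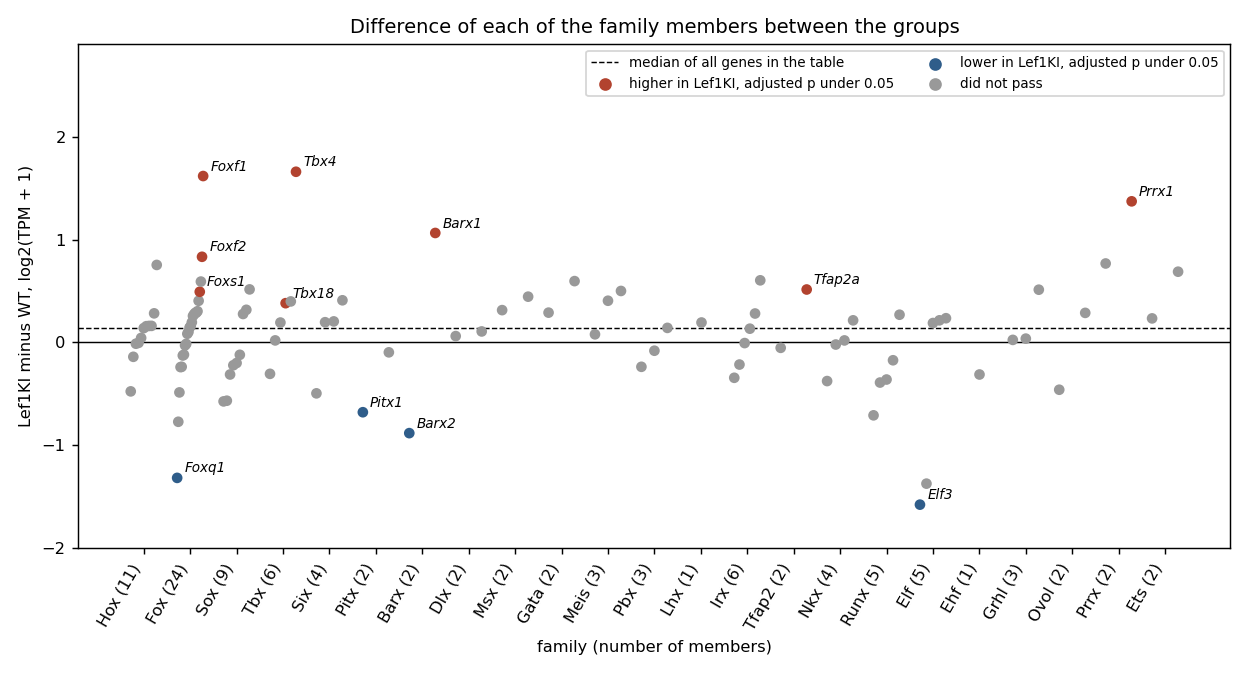
Difference between Lef1KI and WT on the log2(TPM + 1) scale for every member by family, 1 point per gene, red where it rose, blue where it fell and grey where it did not pass. The dashed line is the median of all genes, 0.14. Points of the Fox and Tbx families reach 1.62 and 1.66, those of Elf reach -1.58, and the Hox points stay between -0.47 and 0.75.

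Foxq1, a forkhead gene of hair and epithelial cells that stands in no role list (chr13:31556134-31560976, +), was the remaining call. It had 7.78, 6.26, 2.99, 5.17 and 3.49 TPM in Lef1KI A to E and 6.64, 16.73, 19.32 and 15.69 in WT A, B, D and E. The groups overlapped because Lef1KI A was above WT A, which was far below the other three WT libraries. Its mean was 2.84 times lower, 5.14 ± 1.97 (n = 5) against 14.6 ± 5.52 (n = 4), a difference of -1.32 ± 0.32 (limma adjusted p = 0.0307). This call was lost without Lef1KI C, D or E or WT B, D or E.

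By family, calls were made in 7 of the 23 measured families and none in the other 16, which hold 60 members. With limma, 15 of those 60 (25%) had an unadjusted p under 0.05, near the 23.8% of all genes. The Fox family, with 24 members measured, had 3 higher and 1 lower. Its most abundant member was Foxo3, a stress and metabolism factor, at 74.2 TPM in Lef1KI and 66.1 in WT (0.16, limma adjusted p = 0.552). Of 6 Tbx genes 2 rose and none fell, and Tbx1, the most abundant, had a difference of -0.30 (limma adjusted p = 0.278). Of 9 Sox genes none passed, 1 had an unadjusted p under 0.05 and the median was -0.20. That gene was Sox21, chosen after its values were seen, at 8.39 ± 1.50 TPM (n = 5) and 12.8 ± 1.58 (n = 4) without overlap (-0.57, limma adjusted p = 0.0583). It passed under both other scalings, as did Runx3. Sox9, of duct and gland progenitors, was at 45.8 ± 13.0 and 32.3 ± 11.4 TPM (0.52, limma adjusted p = 0.254).

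Of the 5 Runx rows none passed, 4 were negative and the median was -0.36, with 2 at an unadjusted p under 0.05. Runx1, a factor of blood and epithelial progenitors and the most abundant of them, was at 42.3 ± 10.04 TPM (n = 5) and 54.8 ± 13.9 (n = 4) (-0.36, limma adjusted p = 0.327). Ets2, an ETS factor downstream of growth factor signalling, was the most abundant member of all, at 402 ± 69.3 and 339 ± 38.0 TPM (0.23, limma adjusted p = 0.331). Irx1, the most abundant of 6 Irx rows, was at 59.3 ± 15.2 and 74.4 ± 12.9 TPM (-0.34, limma adjusted p = 0.286), and none of the 6 passed, with 1 at an unadjusted p under 0.05. Among the families without a call, Gata3 had a difference of 0.60, Dlx5 of 0.11 and Msx1 of 0.45, with limma adjusted p of 0.207, 0.742 and 0.0502. The lone Lhx gene, Lhx6, was higher in each Lef1KI library (0.11 to 0.24 TPM) than in any WT library (0 to 0.08). It did not pass (limma adjusted p = 0.101), but did with a constant of 0.1 (limma adjusted p = 0.0167). None of the 12 neural and neural crest factors listed was measured. Of 10 endothelial and blood factors 4 were measured (Ets1, Elf4, Sox7 and Runx3), none passed and 2 had an unadjusted p under 0.05. Ets1 was at 24.9 ± 9.36 TPM (n = 5) and 14.8 ± 5.51 (n = 4) (0.69, limma adjusted p = 0.189). Elf4 had a difference of 0.22, Sox7 of -0.57 and Runx3 of -0.39, with limma adjusted p of 0.572, 0.274 and 0.0836. The median of the 4 was -0.09, with 2 positive and 2 negative values. The antisense rows Irx3os and Runx2os1 overlap Irx3 and Runx2. Since the sources used here do not say whether the authors' counting used the strand, these 4 rows are uncertain.

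No positional factor passed the test on the values as deposited. These are the Hox genes, whose order along the chromosome follows their order of use along the body, and their cofactors of the Meis and Pbx families. Of 17 measured members, 11 Hox, 3 Meis and 3 Pbx, none was called by limma and 3 had an unadjusted p under 0.05. Their differences ranged from -0.47 (Hoxb2) to 0.75 (Hoxd8), with a median of 0.14, equal to that of all genes. Hoxd8 was called with the constant set to 0.1 in place of 1, with weighted libraries and without Lef1KI E or WT A, and was the sole positional gene called under any alternative.

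Hoxb2, the most abundant Hox gene, had 9.41, 10.40, 5.65, 8.80 and 7.56 TPM in Lef1KI A to E and 11.44, 13.40, 10.97 and 11.51 in WT A, B, D and E. No Lef1KI value reached the lowest WT value, but the difference of -0.47 ± 0.18 did not pass (limma adjusted p = 0.135). Hoxd8 was at 1.61 ± 0.746 TPM (n = 5) and 0.525 ± 0.332 (n = 4), with overlap between Lef1KI E at 0.81 and WT A at 1.00 (limma adjusted p = 0.0562). Meis2 was at 14.75 and 10.4 TPM (0.41, limma adjusted p = 0.360) and Pbx2 at 26.4 and 30.6 (-0.24, limma adjusted p = 0.481). The gene model of Hoxa3 spans those of Hoxa4 and Hoxa5, so reads there could be counted for more than 1 of them.

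**Figure D4:**
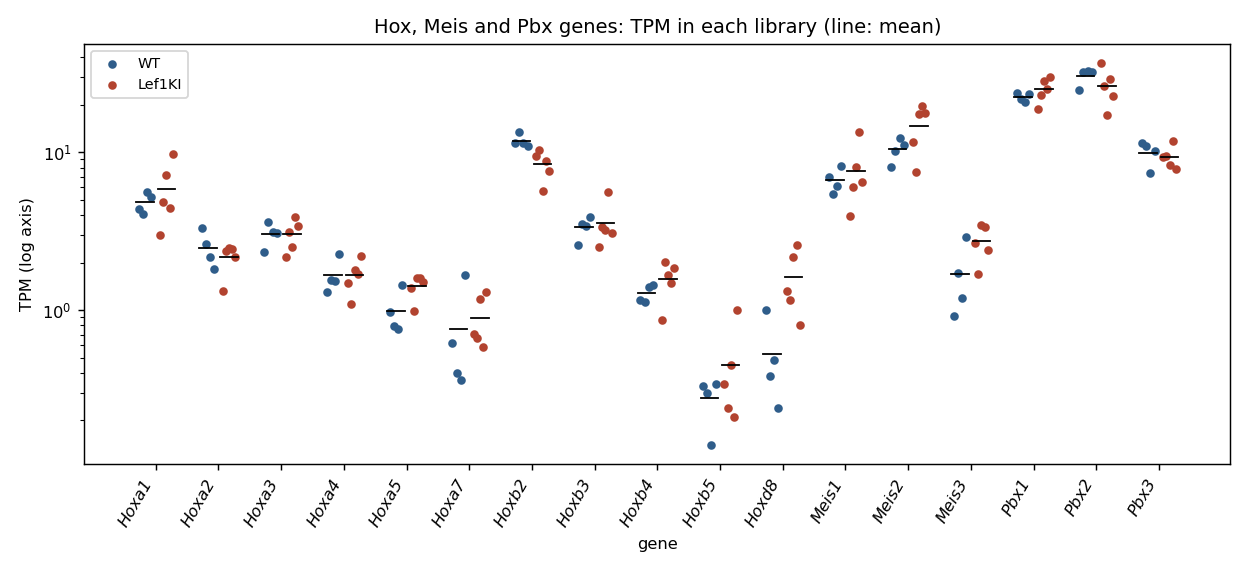
TPM of the 17 Hox, Meis and Pbx members in each library on a log axis, WT in blue and Lef1KI in red, with a line at each mean. The colours overlap in 16 of the 17 genes, and Hoxb2, with Lef1KI at 5.65 to 10.40 TPM and WT at 10.97 to 13.40, is the exception.

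Paralogs and neighbours of the called genes were compared within libraries, as the log2(TPM + 1) of 1 gene minus that of the other, over 11 pairs chosen after the values were seen, of which 1 is not reported here. Since most pairs set a called gene against an uncalled one or one called the other way, these changes follow from the choice and are given as values, with no test. The scale compresses genes near or under 1 TPM, so a pair of unequal level can differ for that reason alone. Tbx4 and Tbx18 carry in addition the limit of the 3 SD filter. Barx1 minus Barx2 was -1.58 in Lef1KI and -3.52 in WT, a change of 1.94 between genes that moved in opposite directions. The transcripts of Barx1 and Barx2 share no identical stretch longer than 17 bases, shown here because opposite changes in near-identical genes would need care.
Barx1 and Barx2 shared stretch: aggatgaaatggaagaa

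Foxf1 and Foxf2 both rose, and the difference between them was larger in Lef1KI by 0.78. Tfap2a against Tfap2c changed by 0.57 and Prrx1 against Prrx2 by 0.60, in pairs of which 1 gene was called. Tbx18 against Tbx15 gave 0.19 and Elf3 against Elf5 gave -0.20.

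On the chromosome, 42 members lay within 1000 kb of another member, in 16 clusters. The Fox cluster on chromosome 13 holds Foxq1, Foxf2 and Foxc1 in that order. Foxq1 fell and Foxf2, 64.8 kb away, rose, so the difference between them changed by 2.15. Foxc1, 175.2 kb beyond Foxf2, was at 12.5 ± 2.51 TPM (n = 5) and 14.7 ± 1.03 (n = 4) and did not pass (-0.24, limma adjusted p = 0.383). The difference of Foxf2 less Foxc1 was higher in Lef1KI by 1.07. That of Foxf1 less Foxc2, 28 kb away on chromosome 8, was higher by 1.31, and that of Tbx4 less Tbx2, 44.5 kb away on chromosome 11, by 1.26. Tbx2 itself was at 5.24 ± 1.35 and 3.66 ± 0.442 TPM and did not pass (0.40, limma adjusted p = 0.216). Chromosome 13 carried 5 of the 12 calls among its 11 members (Foxf2, Tfap2a and Barx1 higher, Foxq1 and Pitx1 lower), where 8.85% of all 486 genes on it were called.

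**Figure D5:**
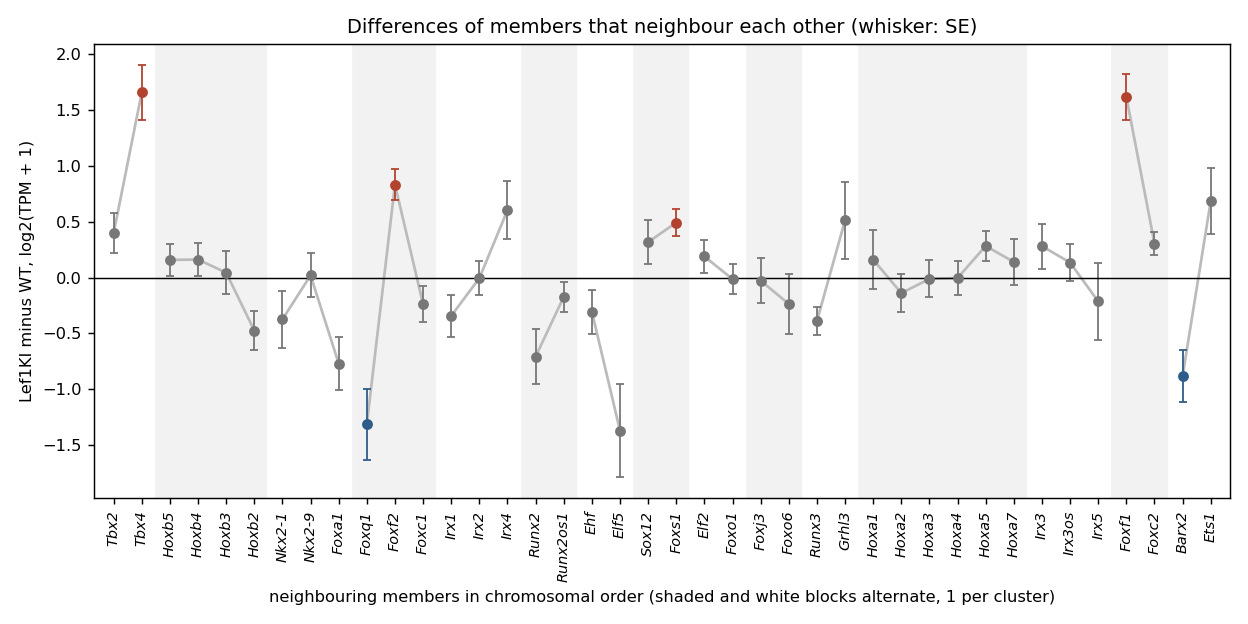
Difference between Lef1KI and WT on the log2(TPM + 1) scale, with whiskers of 1 SE, for members within 1000 kb of another member, with 1 cluster left out, in alternating shaded and white blocks of 1 cluster each, red where they rose, blue where they fell and grey otherwise. Neighbours take unlike values in the cluster of Foxq1 (-1.32), Foxf2 (0.83) and Foxc1 (-0.24), and the 6 genes of the Hoxa cluster stay between -0.14 and 0.28.

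Partners of these factors were given by a list of 17 cofactors, of which 14 were measured, 3 rose and 1 fell, with a median of 0.28. The calls are 28.6% of the measured cofactors, where 7.97% of all genes were called, with a median of 0.14. The Eya proteins, coactivators of homeodomain factors, went opposite ways. Eya2 had 46.73, 34.33, 20.95, 42.83 and 37.22 TPM in Lef1KI A to E, all below the WT values of 54.67, 72.12, 80.51 and 60.20 for A, B, D and E. Its difference was -0.89 ± 0.22 (limma adjusted p = 0.0303), and the call was lost without Lef1KI B or WT B, D or E. Eya4 rose from 0.70 ± 0.238 TPM (n = 4) to 2.27 ± 0.819 (n = 5), a difference of 0.91 (limma adjusted p = 0.0162), lost without WT B or D. Lmo2, a bridging protein of blood and endothelial factors, rose from 0.318 to 1.98 TPM (1.14, limma adjusted p = 0.0102). It was short of 3 SD in WT and had entered the table only through Lef1KI. Its partner Ldb2 rose from 0.158 to 1.16 (0.84, limma adjusted p = 0.0304). The Ldb2 call was lost without Lef1KI E or any 1 WT library, with median centring and with a constant of 3. Of the 10 measured endothelial markers 6 rose as well, but the orders of the libraries differed. From high to low, the endothelial sum had the Lef1KI order D, C, E, B, A. Lmo2 had D, C, A, E, B and Ldb2 had D, E, C, A, B. The part of endothelial cells in these results was not tested.

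A list of 55 other developmental factors outside these families had 38 measured, 14 higher and 1 lower, with a median of 0.36. The calls are 39.5% of those measured, where 7.97% of all genes were called, with a median of 0.14. The split was 10 and 4 under median centring and 11 and 1 under trimmed-mean scaling. Of the 14 that rose, Fli1, Hic1, Hlx and Twist2 were short of 3 SD in WT and so had entered the table only through Lef1KI, where they are high. Twist1, Twist2, Snai1, Zeb1 and Zeb2, known from mesenchyme and from epithelial-mesenchymal transition, were among the 14, while Snai2, known from the same setting, did not pass (99.9 TPM in WT and 76.8 in Lef1KI, -0.37, limma adjusted p = 0.188). These 6 were grouped after their values were seen. Twist2 rose from 0.848 ± 0.455 TPM (n = 4) to 6.43 ± 2.37 (n = 5), a difference of 1.98 (limma adjusted p = 0.00122). Twist1 rose from 2.01 to 7.36 TPM (1.49, limma adjusted p = 0.00281) and Zeb1 from 1.02 to 5.15 (1.55, limma adjusted p = 0.00450). Nr2f1, a nuclear receptor of neural and mesenchymal tissue, rose from 1.08 to 6.62 TPM (1.77, limma adjusted p = 0.00335). Klf2, a flow-responsive factor of endothelium, rose from 0.432 to 3.09 (1.48, limma adjusted p = 0.00151). The gene that fell was Osr2, a zinc-finger factor of palate and limb mesenchyme, which dropped to 32.9 ± 12.3 TPM (n = 5) from 66.0 ± 9.08 (n = 4), a difference of -1.05 (limma adjusted p = 0.0241), lost without Lef1KI C or WT B, D or E. The calls of Twist1, Zeb1, Nr2f1 and Klf2 held under all 18 alternatives. Osr2 is known from mesenchyme but did not move with the stromal markers, whose sum was higher in each Lef1KI library. The lists were drawn up with earlier results of these data known and are no independent evidence of direction.

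Agreement between libraries differed between the groups. The median SD of a member's log2(TPM + 1) value was 0.30 over the Lef1KI libraries and 0.20 over the WT libraries, where all genes had 0.26 and 0.22. The calls of Foxf1, Foxf2, Tbx4 and Barx1 were the steadiest, kept when any 1 of the 9 libraries was left out and under the 9 other alternatives run. Prrx1 kept its call when any 1 library was left out.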

How the data were processed

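The 9 libraries were made for stranded mRNA sequencing. Per the submitters' processing notes the authors quantified genes with RSEM on mm10, and they deposited log2 values, log2(TPM + 1), for 13336 genes kept by their 3 SD filter. The sources used here do not give the RSEM version, aligner or annotation. TPM values keep no read depth, so no interval for counting error can be given. Members were chosen by gene name. Members, lists and pairs were chosen with earlier results of these data known.

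The values were fitted as deposited with limma 3.58.1 (trended variance, R 4.3.3), Lef1KI against WT over all genes, with Benjamini-Hochberg adjustment and a threshold of 0.05. Linear TPM was recovered by subtracting the constant of 1. The fit was tested on simulated data. Named genes are the called members, the most abundant member of each family, epithelial factors of at least 1 TPM in either group, and up to 5 called genes per direction from the cofactor and other-factor lists; others named here were chosen after their values were seen, and results of some members are not reported here. No label says whether pools were taken from separate litters or days, so p-values measure only the spread between these pools. Gene positions are from GENCODE M21 (GRCm38). Each library was left out in turn and 9 other settings were run: other scalings, constants of 0.1 and 3, a filter at 1 TPM, no trend, robust variance, library weights and a block by column letter.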

Additional observations from a re-analysis of the deposited data

Results flagged for a closer look

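Of 78 groups of libraries checked (named members in each genotype group), 4 had 1 library far from the rest. This is close to the 1 in 20 that chance gives. All 4 were WT libraries. Ets2 was highest in WT A at 395.64 TPM, with the others between 314.39 and 325.07. Ovol1 was lowest in WT A at 4.99 TPM, against 8.35 to 9.17, and Pbx2 was lowest in WT A at 24.7 TPM, against 32.2 to 32.92. Sox2 was highest in WT D at 28.37 TPM, against 24.84 to 25.09. None of these 4 genes passed the test between the groups.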

How the results depend on the processing

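No called member changed the sign of its difference under any of the 18 alternatives, and of 27 named members that were not called 6 changed sign under at least 1. Among all genes 1063 were called (898 higher, 165 lower). Weighted libraries gave 2334 (1747 and 587). Leaving out 1 library gave 628 to 1686 called, 565 to 1416 higher and 63 to 270 lower. The lower count was 332 under median centring and 287 under trimmed-mean scaling. Among members, 12 were called (8 higher, 4 lower). Weighted libraries gave 28 (17 and 11), median centring 5 higher and 9 lower, trimmed-mean scaling 8 lower, and leaving out 1 library 6 to 14 called, 5 to 10 higher and 0 to 6 lower. The 3 epithelial factors that fell became 5 with median centring or weighted libraries, and 0 to 4 without 1 library. The 5 mesenchymal factors that rose became 4 to 6 without 1 library. Their median of 0.57 was 1.26 with a constant of 0.1, 0.29 with a constant of 3 and 0.83 with the filter at 1 TPM. The labels number the samples and the columns carry letters that no label ties to those numbers. Between libraries of the same letter, the deviations from the group mean had correlations of -0.259, 0.02, -0.148 and 0.258 for A, B, E and D. Only D correlated best with its own letter in both groups. Whether a shared letter marks a shared day or batch is not known. With the letter as a replicate block, 484 genes were called (437 higher, 47 lower), 4 members (4 higher, 0 lower: Foxf1, Foxf2, Tbx4 and Barx1), 3 mesenchymal factors higher and 0 epithelial factors lower. Of the named genes outside the families, Eya2, Eya4, Ldb2 and Osr2 lost their calls under it. No WT library carries the letter C, so the block fit takes no group difference from Lef1KI C. Its differences equalled those without Lef1KI C, such as 1.47 for Foxf1 in both fits. With Lef1KI C left out and no block, 757 genes and 7 members were called. The block fit also estimates more terms from the same libraries. What the letters add beyond this, and the cause of the other changes, was not tested. Depth is unknown, so how far low levels such as those of Tbx18 and Foxs1 rest on few reads cannot be said.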

Other observations

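Within the WT group the libraries held unlike levels of many members. WT A was the lowest WT library for 48 of the 103 members (46.6%, where all genes gave 44.9%) and WT D the highest for 44 (42.7%, where all genes gave 39.4%). Elf3, Foxa1, Foxe1, Foxj2, Foxo4, Foxp2, Grhl1, Grhl2, Ovol1, Runx2, Sox2 and Sox7 each had the order D, E, B, A from high to low. Ets1, Sox4, Sox9, Irx3, Irx5 and Hoxa2 had the reverse order. How common each order is over all genes was not counted. These orders were noticed after the values were seen and carry no test.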
